A study of Mus musculus with 4 samples.

Results

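The transcripts described here are those of the mitochondrial genome, taken as every gene symbol that starts with mt- in Drop-seq count tables of the mouse cortex. There were 27 such genes among the 27487 symbols listed, and they comprised 2 rRNAs, 10 mRNAs and 15 tRNAs. Drop-seq captures single cells in droplets with barcoded beads and counts unique molecular identifiers (UMIs), so that each value is a number of captured RNA molecules of a gene in a cell. The 4 groups compared had 1 library each: female wild-type, female Tg2576, male wild-type and male Tg2576. The Tg2576 mice were heterozygous for B6;SJL-Tg(APPSWE)2576Kha, a transgene in which the hamster prion protein promoter drives human amyloid precursor protein with the Swedish mutation, and the wild-type mice were their littermates. Mice of all 4 groups were aged to 24 weeks and perfused with PBS, and the cortex of 9 mice per group was pooled and dissociated enzymatically before the library was made. The pooling leaves 1 value per group, so the spread between mice is unknown, and sex cannot be told apart from whatever else differs between the 2 female and the 2 male libraries.

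Mitochondria keep a small circular genome that is transcribed from both strands into long precursors, and these are cut into rRNAs, mRNAs and tRNAs. The rRNAs mt-Rnr1 (12S) and mt-Rnr2 (16S) form the mitochondrial ribosome, and the mRNAs encode core subunits of complexes I, III and IV and of the ATP synthase, which work with subunits encoded in the nucleus to carry out oxidative phosphorylation. Most mature mitochondrial mRNAs, and the rRNAs, carry short poly(A) tails, which is how a method that primes on poly(A) can capture them. How well each of these RNAs was captured was not measured. In dissociated tissue, the mitochondrial share of a cell's UMIs is also widely used as a sign of damaged cells.

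Each table held 3000 barcodes, and 1278 to 1646 female and 1083 to 1578 male barcodes had between 200 and 7000 genes and were kept, 5585 in all. The kept cells held 1706914 to 1994544 UMIs per library with a median of 894 to 1237 UMIs per cell, and 27 barcodes occurred in more than 1 library (6 among the kept cells). The labels passed the checks that the data allow: the counts of Xist per 1000000 UMIs (CPM) were 1056 and 952 in the female and 0 and 1.68 in the male libraries, those of Ddx3y were 0 and 0 against 260 and 240 UMIs, and App was at 1612 and 1556 CPM in the Tg2576 libraries against 844 and 1159 CPM in the wild-type ones.

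Along the mitochondrial genome the UMIs were distributed very unevenly. mt-Rnr2, between positions 1094 and 2675 of the mitochondrial chromosome (mm10, RefSeq coordinates of the same build, 1582 bp), had 283503 and 348237 UMIs in wild-type and Tg2576 females and 181992 and 130170 in wild-type and Tg2576 males over all barcodes. mt-Rnr1, at 70 to 1024 (955 bp), had 19398, 20223, 6497 and 3255 UMIs in the same order. The female libraries were the highest for both rRNAs, and the sexes did not overlap.

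Among the mRNAs, mt-Cytb, the cytochrome b subunit of complex III (14145 to 15288), had 3619 and 5455 UMIs in wild-type and Tg2576 females and 5108 and 6480 in wild-type and Tg2576 males. The complex I subunits mt-Nd1 (2751 to 3707), mt-Nd2 (3914 to 4951), mt-Nd4 (10167 to 11544) and mt-Nd5 (11742 to 13565) each had between 2191 and 5098 UMIs per library. mt-Co1 (5328 to 6872), the catalytic subunit of complex IV, had 1977, 2698, 2403 and 1805 UMIs. mt-Nd6 (13552 to 14070), the only protein-coding gene on the other strand, was the lowest of these 7 mRNAs with 184, 197, 153 and 175 UMIs. Unlike the rRNAs, none of these mRNAs had more UMIs in both female libraries than in both male ones apart from mt-Nd6, whose 4 values lay close together.

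A stretch of 3304 bp from mt-Ts1 to mt-Nd4l (6870 to 10173) was nearly empty. It holds 11 of the 37 mitochondrial genes, only 3 of which were listed, with 9 UMIs in all over all barcodes. The complex IV subunit mt-Co2 had 1 UMI in the female wild-type and 2 in the female Tg2576 library, mt-Co3 had 1 in the female Tg2576 and 1 in the male wild-type library, and the ATP synthase subunit mt-Atp6 had 2 in wild-type females and 1 each in wild-type and Tg2576 males. The other 8 genes of the stretch, mt-Atp8 and mt-Nd3 among them, were not listed, and neither were 2 tRNA genes outside it, mt-Tn and mt-Th. mt-Co1, which ends where the stretch begins, and mt-Nd4, which starts where it ends, each had at least 1805 UMIs in every library. A stretch of chromosome 1 carries a nuclear copy of this part of the mitochondrial genome, and reads that match both places equally well can be lost or moved in counting. Gm10925 (chr1:24613971-24614651, 681 bp, for which RefSeq gives mt-Atp6 as a synonym) had 7, 4, 6 and 3 UMIs, and Gm28438, another gene model for a nuclear copy, whose position the table used does not give, had 129 and 239 in wild-type and Tg2576 females and 181 and 155 in wild-type and Tg2576 males. The part of the nuclear copies in the gap was not tested, and mt-Co2, mt-Co3 and mt-Atp6 are not measured well enough here for any comparison.

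**Figure D1:**
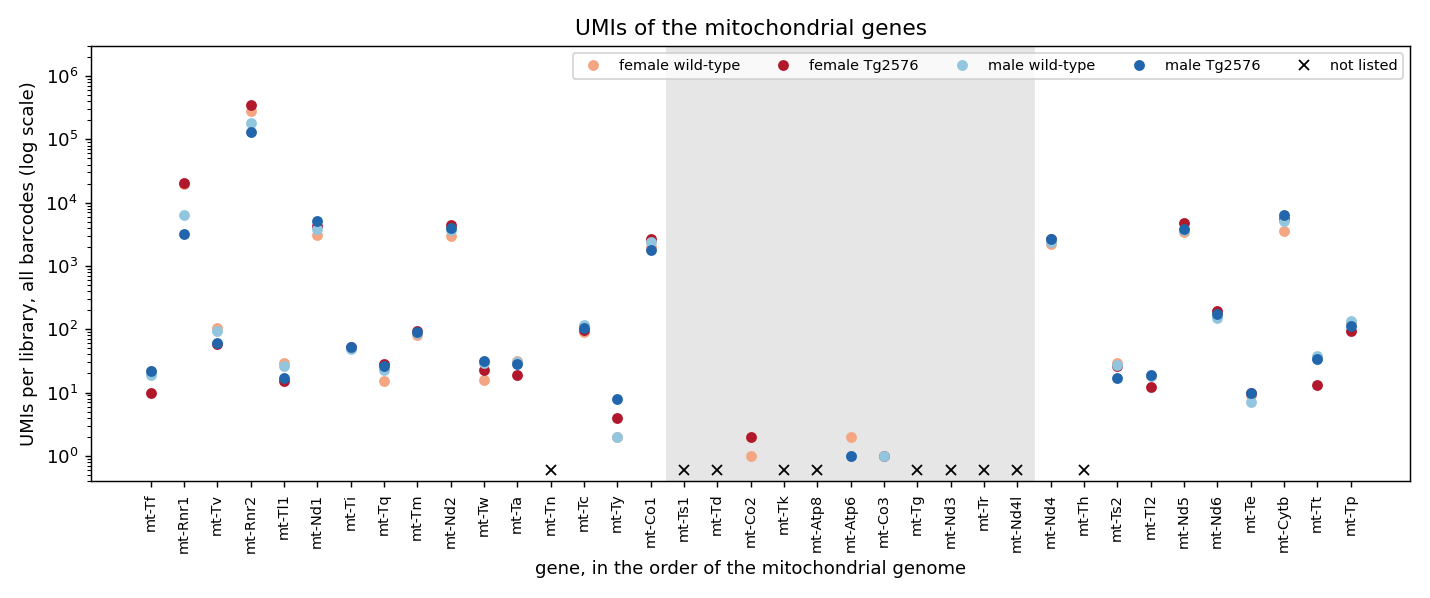
UMIs of the 37 mitochondrial genes over all barcodes on a log scale, in genome order, with 1 colour per library. Crosses mark genes that were not listed, and the grey band marks the stretch from mt-Ts1 to mt-Nd4l, where 3 listed genes had 9 UMIs in all while mt-Rnr2 on its own reached 130170 or more in every library.

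In CPM of the kept cells per kilobase of gene, the level of mt-Rnr2 was 52705 ± 23153 (SD, n = 4 libraries), followed by mt-Rnr1 with 4604 ± 3286, mt-Cytb with 1821 ± 476, mt-Nd1 with 1730 ± 477 and mt-Nd2 with 1424 ± 238. mt-Nd5 followed at 818 ± 93.9, mt-Nd4 at 707 ± 93.2, mt-Co1 at 572 ± 79.2 and mt-Nd6 at 131 ± 16.5. The tRNAs are left out of this order, and mt-Tc (645) and mt-Tp (619) lay between mt-Nd4 and mt-Co1. The ranges of the neighbours mt-Cytb and mt-Nd1 overlapped between libraries, as did those of mt-Nd5 and mt-Nd4, although mt-Cytb was above mt-Nd1 and mt-Nd5 above mt-Nd4 within each of the 4 libraries. For both rRNAs each female library was well above each male one, whereas the levels of mt-Nd5, mt-Nd4 and mt-Co1 varied little between libraries. Only a 3′ end is counted per molecule, so UMIs do not grow with gene length and this order depends on the division by length. Undivided, mt-Nd5 had 10944 UMIs in the kept cells against 10821 for mt-Nd2, and mt-Co1 had 6472 against 312 for mt-Tc.

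The tRNAs, which carry amino acids to the mitochondrial ribosome, had few UMIs. In the kept cells, 5 of the 15 had at least 100 UMIs: mt-Tc (312), mt-Tp (303), mt-Tm (258), mt-Tv (195) and mt-Ti (151). The other 10 had 12 to 76. A single barcode of the female wild-type library, in the neuron cluster and with 64.4% of its 2906 UMIs mitochondrial, held 93 of the 456 tRNA UMIs of that library, including 20 of its 70 for mt-Tv and 15 of its 71 for mt-Tc. The female log2 ratio of Tg2576 over wild-type for mt-Tv was -0.70 (interval -1.26 to -0.15) with that barcode and -0.22 (-0.82 to 0.39) without it.

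Of all UMIs in the kept cells, 11.8% and 13.9% were mitochondrial in wild-type and Tg2576 females and 7.61% and 5.38% in wild-type and Tg2576 males. The exact binomial 95% intervals of these shares were 11.7% to 11.8%, 13.9% to 13.9%, 7.57% to 7.65% and 5.35% to 5.42%, and they cover counting error only, as do all intervals given here. The medians over cells were 10.3%, 11.8%, 7.05% and 4.53% in the same order. Both female libraries were thus above both male ones, and the male Tg2576 library was the lowest. The share of cells under 5% mitochondrial UMIs was 18.1% and 14.5% in the female wild-type and Tg2576 libraries and 33.8% and 55.6% in the male wild-type and Tg2576 ones, so a limit set there would remove most of the cells in 3 of the 4 libraries.

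The order of the libraries turned for the mRNAs. The 2 rRNAs made up 11.1% and 13.0% of all UMIs in wild-type and Tg2576 females and 6.71% and 4.32% in wild-type and Tg2576 males. The 10 mRNAs together made up 0.669%, 0.876%, 0.872% and 1.036% in the same order. The male Tg2576 library was therefore the lowest for rRNA and the highest for mRNA. Of the 10, mt-Co2, mt-Co3 and mt-Atp6 held only 1, 1 and 3 UMIs in the kept cells. The mRNA totals given here and below are thus almost wholly those of the other 7, not of all mRNAs of the mitochondrial genome. As a share of mitochondrial UMIs, the mRNAs went from 5.69% and 6.30% in wild-type and Tg2576 females to 11.5% and 19.3% in wild-type and Tg2576 males, and there were 15.5, 14.02, 7.44 and 4.06 UMIs of mt-Rnr2 per mRNA UMI. The rRNAs also differed from each other: there were 14.8 and 17.2 UMIs of mt-Rnr2 per UMI of mt-Rnr1 in the female wild-type and Tg2576 libraries, against 29.1 and 35.6 in the male wild-type and Tg2576 ones. Malat1, a long RNA retained in the nucleus whose share is read as a sign of RNA quality, was at 4.89%, 4.34%, 3.45% and 2.80% of all UMIs. Its order was wild-type female, Tg2576 female, wild-type male and Tg2576 male, and its part in the mitochondrial shares was not tested.

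The split between rRNA and mRNA was seen within cell types as well. In microglia, the resident immune cells of the brain, rRNA made up 6.92%, 6.68%, 4.38% and 2.82% of UMIs in the order female wild-type, female Tg2576, male wild-type and male Tg2576, and mRNA made up 0.426%, 0.451%, 0.555% and 0.671%. In astrocytes, which support neurons and their metabolism, the rRNA shares were 16.5%, 20.2%, 10.2% and 6.02% and the mRNA shares 0.640%, 0.930%, 1.10% and 1.34%. In oligodendrocytes, which form myelin, they were 9.63%, 9.21%, 5.64% and 2.95% for rRNA and 0.669%, 0.873%, 1.02% and 1.12% for mRNA. In these 3 cell types each female library was above each male one for rRNA and below each male one for mRNA. Over the 8 populations with at least 20 cells in every library, all kept cells and the unnamed cells included, the sexes did not overlap in 8 of 8 for the mitochondrial share, the rRNA share and mt-Rnr2 per mRNA, and in 5 of 8 for the mRNA share. All kept cells hold the other sets, so these are not 8 separate observations, and no like count was made over other features. In neurons, left out here, the mitochondrial shares of the sexes overlapped (28.2%, 24.0%, 25.2% and 8.25% in the same order). In OPCs and choroid plexus cells, also left out, they did not.

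**Figure D2:**
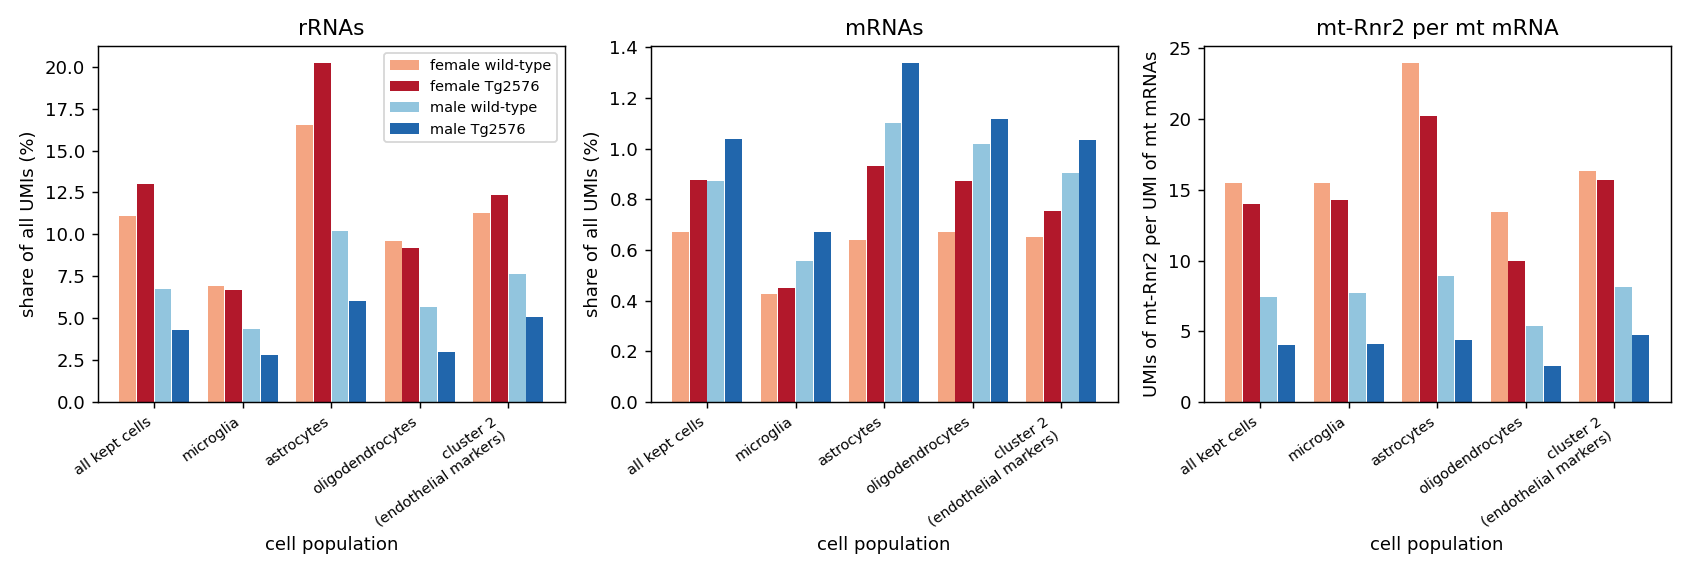
Bars give, for all kept cells and 4 populations and with 1 colour per library, the mitochondrial rRNA share of all UMIs (left, %), the mitochondrial mRNA share of all UMIs (middle, %) and the UMIs of mt-Rnr2 per mitochondrial mRNA UMI (right). The male Tg2576 bars are the lowest for rRNA and the highest for mRNA in all 5 sets, for example 2.82% and 0.671% in microglia.

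The balance also moved with the mitochondrial share of the single cell. When the kept cells were binned by that share, the mRNAs made up 24.4%, 18.1%, 15.8%, 13.0% and 10.8% of mitochondrial UMIs of male Tg2576 cells from the bin of 0 to 5% to that of 40 to 100%. In wild-type males these shares were 16.4%, 12.4%, 9.09%, 8.58% and 9.86%, in Tg2576 females 8.36%, 7.50%, 6.11%, 5.61% and 6.51%, and in wild-type females 9.01%, 6.57%, 4.84%, 5.56% and 5.78%. The first bin was the highest in all 4 libraries, and the fall continued over all 4 steps in the male Tg2576 library alone, whose last bin holds only 8 cells (5 in the male wild-type library). Within each of the 5 bins both male libraries were above both female ones, so the sexes did not overlap among cells of a like mitochondrial share either. mt-Rnr1 made up 3.86% of mitochondrial UMIs in the first and 7.78% in the last bin of wild-type females, 2.55% and 6.87% in the female Tg2576, and 2.39% and 4.49% in the male wild-type library. In the male Tg2576 library it made up 1.88% in the first bin, 2.85% in the bin of 20 to 40% and 1.76% in the last. Since the share used for binning is made mostly of rRNA, these are descriptions and carry no test.

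**Figure D3:**
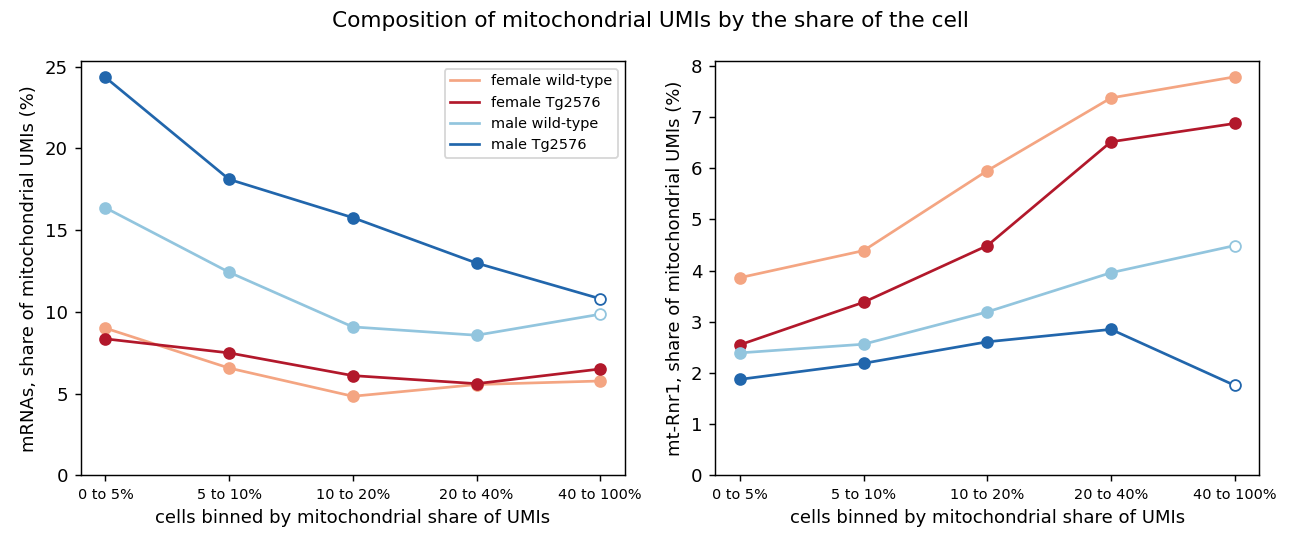
The mRNA share (left, %) and the mt-Rnr1 share (right, %) of mitochondrial UMIs are plotted for kept cells binned by the mitochondrial share of their UMIs, with 1 line per library and hollow points for bins of under 20 cells. The male lines lie above the female ones on the left (24.4% against 9.01% or less at 0 to 5%) and the female wild-type line is the highest on the right.

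Barcodes with under 200 genes, which were not kept, were 41.3% and 42.6% mitochondrial in wild-type and Tg2576 females and 36.7% and 27.7% in wild-type and Tg2576 males (1722, 1353, 1917 and 1422 barcodes). In each library these shares were above those of the kept cells, and the order of the libraries was the same.

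Cells were then named from fixed markers after clustering without the mitochondrial genes. Microglia (clusters 0, 3 and 8) had all 10 of their markers raised in the 2 largest clusters, and their own markers summed to 30234 to 38081 CPM per library. The female Tg2576 library had more microglia in cluster 3 (266 of 535 cells) than in cluster 0 (235). The other libraries had most in cluster 0 (311 of 476, 269 of 352 and 380 of 538 cells), which is led by Ccl4, Tnf and Il1a. Astrocytes were clusters 1 and 10 and oligodendrocytes cluster 4. Cluster 2 had all 9 endothelial markers raised but was led by haemoglobin genes, so it is called cluster 2, with endothelial markers. Its 5 erythrocyte genes summed to 9223 CPM in wild-type females and to 0, 19 and 12 CPM in Tg2576 females, wild-type males and Tg2576 males.

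The mitochondrial share differed several fold between cell types, and the order of the types was nearly the same in every library. Microglia were at 7.36%, 7.14%, 4.95% and 3.51% of their UMIs in the order female wild-type, female Tg2576, male wild-type and male Tg2576. Astrocytes were at 17.2%, 21.2%, 11.3% and 7.38%. The mean over libraries was lowest in microglia (5.74% ± 1.84, SD, n = 4), followed by neuroblasts or progenitors (6.04% ± 1.97), oligodendrocytes (7.79% ± 2.98), mural cells (9.17% ± 4.56), cluster 2 (9.95% ± 3.20) and astrocytes (14.3% ± 6.13). Of the 15 pairs of these 6 types, 13 had the same order in all 4 libraries, the exceptions being oligodendrocytes against mural cells and cluster 2 against mural cells. Each of the 13 had p = 0.13 in the exact two-sided sign-flip permutation test over libraries, the smallest that 4 libraries can give, or 0.144 after Benjamini-Hochberg adjustment over the 15 pairs, so no pair could pass a threshold of 0.05. The astrocyte share was above the microglial one by 1.26 ± 0.213 (SD, n = 4) on the log2 scale, whereas the neighbours microglia and neuroblasts or progenitors were only 0.074 ± 0.064 apart.

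Neurons, whose cluster had 40, 86, 9 and 51 cells in the order given above, were at 28.2%, 24.0%, 25.2% and 8.25%, with a mean of 21.4% ± 8.94 (SD, n = 4). They were the highest of the named types in the female wild-type, female Tg2576 and male wild-type libraries and also in the male Tg2576 library, though there by less than 1 percentage point over astrocytes. With 9 cells in the male wild-type library they entered no test.

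**Figure D4:**
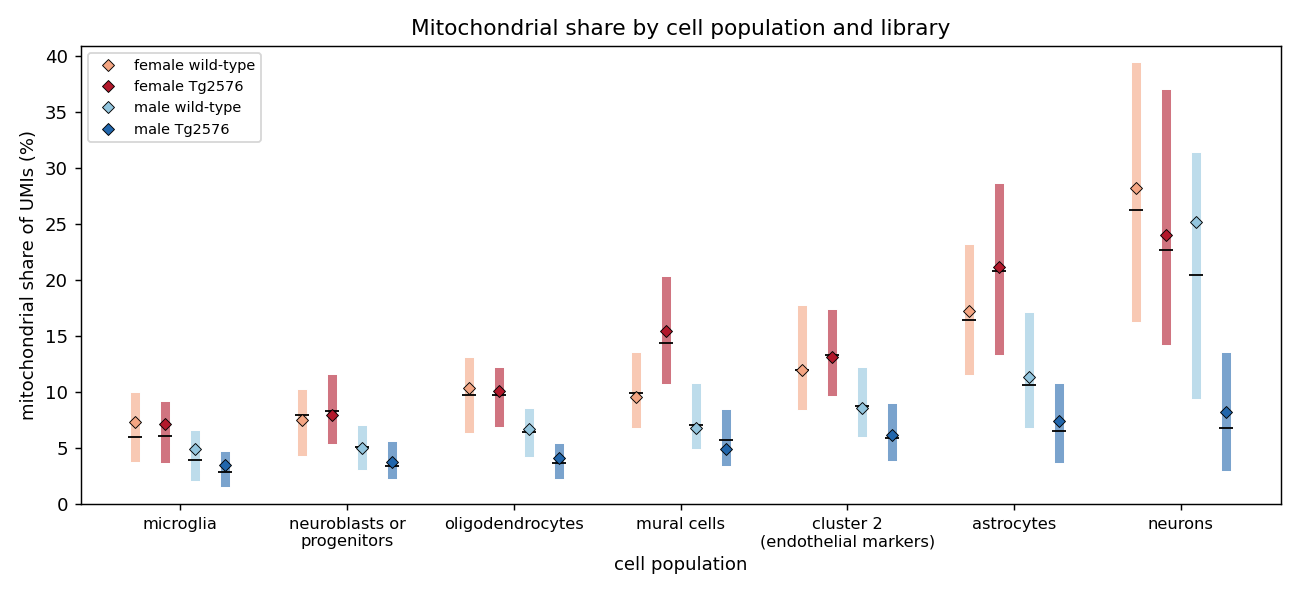
The mitochondrial share of UMIs (%) is plotted for 7 cell populations, with 1 colour per library, diamonds for the share of summed UMIs, thick lines for the range between the quartiles over cells and black dashes for the median cell. Diamonds of microglia lie between 3.51% and 7.36% and those of astrocytes between 7.38% and 21.2%, and the male Tg2576 library is the lowest in each of the 7 populations.

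For mRNA alone, the types were ordered otherwise. Microglia had the lowest mRNA share of the 6 types in all 4 libraries, below astrocytes by 0.90 ± 0.214, oligodendrocytes by 0.80 ± 0.135, mural cells by 0.78 ± 0.244, cluster 2 by 0.67 ± 0.0616 and neuroblasts or progenitors by 0.37 ± 0.123 (mean log2 difference ± SD, n = 4). Astrocytes, at 1.00% ± 0.294, and oligodendrocytes, at 0.919% ± 0.194 of UMIs, were close (0.10 ± 0.133 on the log2 scale, higher in astrocytes in 3 of 4 libraries) although their total mitochondrial shares were well apart. In all, 10 of the 15 pairs kept 1 order in the 4 libraries (exact two-sided sign-flip permutation test, smallest p = 0.13, 0.188 adjusted). There were 0.84 ± 0.127 (log2) more mt-Rnr2 UMIs per mRNA UMI in astrocytes than in oligodendrocytes, with 24.0, 20.2, 8.92 and 4.38 in astrocytes and 13.4, 9.97, 5.37 and 2.57 in oligodendrocytes in the order of libraries given above.

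Cell types also differed in which mitochondrial mRNAs they held. mt-Nd1 made up 12.1%, 12.6%, 12.5% and 16.6% of mitochondrial mRNA UMIs in astrocytes and 21.7%, 20.1%, 23.5% and 25.9% in microglia (female wild-type, female Tg2576, male wild-type, male Tg2576), so that the highest astrocyte value was below the lowest microglial one. mt-Nd5, another complex I subunit, went the other way, with 22.9%, 25.2%, 20.7% and 18.5% in astrocytes, 19.5%, 18.9%, 14.9% and 16.1% in microglia, 13.2%, 11.9%, 11.7% and 10.8% in oligodendrocytes and 11.6%, 14.3%, 11.7% and 10.97% in cluster 2. mt-Co1 was at 13.7%, 15.2%, 16.8% and 11.3% in oligodendrocytes and at 9.50%, 9.90%, 8.08% and 5.91% in microglia, again without overlap. The share of mt-Nd1 was higher in microglia than in astrocytes by 0.77 ± 0.127 on the log2 scale (SD, n = 4), that of mt-Nd5 was higher in astrocytes than in oligodendrocytes by 0.87 ± 0.146, and that of mt-Co1 was lower in microglia than in oligodendrocytes by 0.79 ± 0.253. The 7 mRNAs with at least 100 UMIs over all kept cells were compared in the 6 pairs of the 4 largest populations. Of these 42 comparisons, 29 had the same direction in all 4 libraries. Each of the 29 had the smallest exact p the sign-flip permutation test allows (0.13, or 0.181 adjusted over the 42). mt-Nd6, which gave 4 of the 29, had only 39 UMIs in oligodendrocytes and 59 in cluster 2 over the 4 libraries. mt-Nd4 kept 1 order in only 2 of its 6 pairs, and its share stayed between 8.71% and 14.5% in these 4 populations.

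Among the 5 tRNAs with at least 100 UMIs, mt-Tc differed most between cluster 2 and all other kept cells, the comparison made here. mt-Tc, the cysteine tRNA (5192 to 5257), was at 140.0, 124, 141 and 161 CPM in cluster 2, with endothelial markers, and at 20.6, 24.9, 20.9 and 21.98 CPM in all other kept cells (female wild-type, female Tg2576, male wild-type, male Tg2576). Of its 312 UMIs, 178 (57.1%) were in cluster 2. They came from 29, 31, 30 and 38 cells with at most 3, 5, 4 and 4 UMIs in 1 cell. The erythrocyte genes of this cluster were at 9223 CPM in wild-type females and at 0 to 19 CPM in the other 3 libraries. Their part in the level of mt-Tc was not tested. The mean log2 ratio of mt-Tc in cluster 2 over the other cells was 2.67 ± 0.249 (SD, n = 4; higher in 4 of 4 libraries), and those of mt-Tv (1.16 ± 0.273) and mt-Tp (1.15 ± 0.219) were also above 0 in 4 of 4. The exact two-sided sign-flip permutation test gave p = 0.13 for each, or 0.208 adjusted over the 5 tRNAs. mt-Tm and mt-Ti were higher in cluster 2 in 2 and 1 of the 4 libraries. The other cells include cluster 14, which also had endothelial markers and was not compared separately for mt-Tc. All its tRNAs together made up 0.033% and 0.062% of UMIs in Tg2576 females and wild-type males (43 and 20 cells). In cluster 2 this share was 0.039% and 0.038% in the same 2 libraries.

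Within each sex, the mitochondrial share of the Tg2576 library was set against that of the wild-type library. In all kept cells, the log2 ratio of Tg2576 over wild-type was 0.24 (interval 0.23 to 0.25) in females and -0.50 (-0.51 to -0.49) in males. In astrocytes it was 0.30 (0.29 to 0.31) and -0.62 (-0.64 to -0.59), and in cluster 2 it was 0.14 (0.12 to 0.16) and -0.49 (-0.51 to -0.46). In microglia it was -0.04 (-0.06 to -0.02) in females and -0.50 (-0.52 to -0.47) in males, and in oligodendrocytes -0.03 (-0.06 to 0.00) in females and -0.71 (-0.75 to -0.66) in males. The male Tg2576 library was thus lower in all 5 sets, and the female Tg2576 library was higher in 3 of them and within 0.05 of the wild-type library in microglia and oligodendrocytes. Of the smaller populations, OPCs were higher in the male Tg2576 library too (0.25, 0.17 to 0.33, 36 cells in each male library), and neurons were lower in the female one (-0.23, -0.26 to -0.20). With 1 library per group these ratios carry no test, and they set 2 libraries side by side, not 2 genotypes. They moved with the cells that were kept. With cells limited to 5% mitochondrial UMIs the ratio over all cells was 0.01 in females and -0.13 in males. The female ratio of cluster 2 was -0.41, but it rests on very few cells. Of the cluster 2 cells, 98.3% of 175 in wild-type and 98.7% of 318 in Tg2576 females were above that limit.

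The mRNA share was higher in the Tg2576 library of both sexes in each of these 5 sets. The log2 ratio was 0.39 (interval 0.35 to 0.42) in females and 0.25 (0.22 to 0.28) in males over all kept cells, 0.54 and 0.28 in astrocytes, 0.38 and 0.14 in oligodendrocytes, 0.21 and 0.19 in cluster 2 and 0.08 and 0.27 in microglia. The 10 intervals lay above 0, also with the UMIs of all other genes as the denominator. In 2 smaller populations the signs were not positive: the ratios were -0.04 and -0.60 in neurons (9 cells in wild-type males) and -0.07 and -0.48 in choroid plexus cells (19 cells in Tg2576 females). The rRNA share, in contrast, was lower in the male Tg2576 library in all 5 sets, with log2 ratios of -0.63 over all kept cells, -0.63 in microglia, -0.76 in astrocytes, -0.93 in oligodendrocytes and -0.60 in cluster 2, and in females it was 0.23, -0.05, 0.29, -0.06 and 0.13. With cells limited to 5% mitochondrial UMIs the female mRNA ratio over all cells was -0.10.

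Among the single mRNAs, mt-Nd1 had the largest male ratio . It was at 1181 and 1603 CPM in wild-type and Tg2576 females and 1559 and 2278 in wild-type and Tg2576 males over all kept cells, with log2 ratios of 0.44 (0.36 to 0.52) in females and 0.55 (0.48 to 0.62) in males. mt-Cytb was at 1433, 1977, 2169 and 2753 CPM, with ratios of 0.46 (0.39 to 0.54) and 0.34 (0.28 to 0.41). For both genes each Tg2576 library was above the wild-type library of its sex, and the male Tg2576 library was the highest.

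The complex I subunit mt-Nd2, at 1133, 1572, 1498 and 1711 CPM, gave ratios of 0.47 in females and 0.19 in males, mt-Nd5, at 1272, 1653, 1445 and 1599 CPM, gave 0.38 and 0.15, and mt-Nd4, at 847, 912, 995 and 1145 CPM, gave 0.11 and 0.20. mt-Nd6, at 73.2, 70.7, 55.1 and 72.2 CPM, had intervals that spanned 0 in both sexes. Of the 7 mRNAs with UMIs in both libraries, 6 had an interval above 0 in females and 5 in males.

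mt-Co1 was the exception. It was at 754 and 972 CPM in wild-type and Tg2576 females and 1004 and 806 in wild-type and Tg2576 males, so that the Tg2576 library was higher in females (log2 0.37, interval 0.27 to 0.47) and lower in males (-0.32, -0.42 to -0.21). The same signs were found in astrocytes (0.40 and -0.29), oligodendrocytes (0.53 and -0.43) and cluster 2 (0.29 and -0.41), while in microglia (0.14 and -0.18) both intervals spanned 0. As a share of mitochondrial mRNA, which does not depend on rRNA or on nuclear genes, mt-Co1 was at 11.3%, 11.1%, 11.5% and 7.78% over all kept cells, so that only the male Tg2576 library stood apart. The male log2 ratio of that share was -0.56 over all kept cells, -0.57 in astrocytes, -0.57 in oligodendrocytes, -0.60 in cluster 2 and -0.45 in microglia, with each interval below 0, and the female ratio lay between -0.14 and 0.15 with each interval spanning 0. mt-Nd1 had the opposite pattern, at 17.6%, 18.3%, 17.9% and 21.98% of mitochondrial mRNA. mt-Nd4 set the female Tg2576 library apart from the female wild-type library, at 10.4% against 12.7% of mitochondrial mRNA (log2 -0.28, interval -0.38 to -0.18), and was at 11.4% and 11.04% in wild-type and Tg2576 males.

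**Figure D5:**
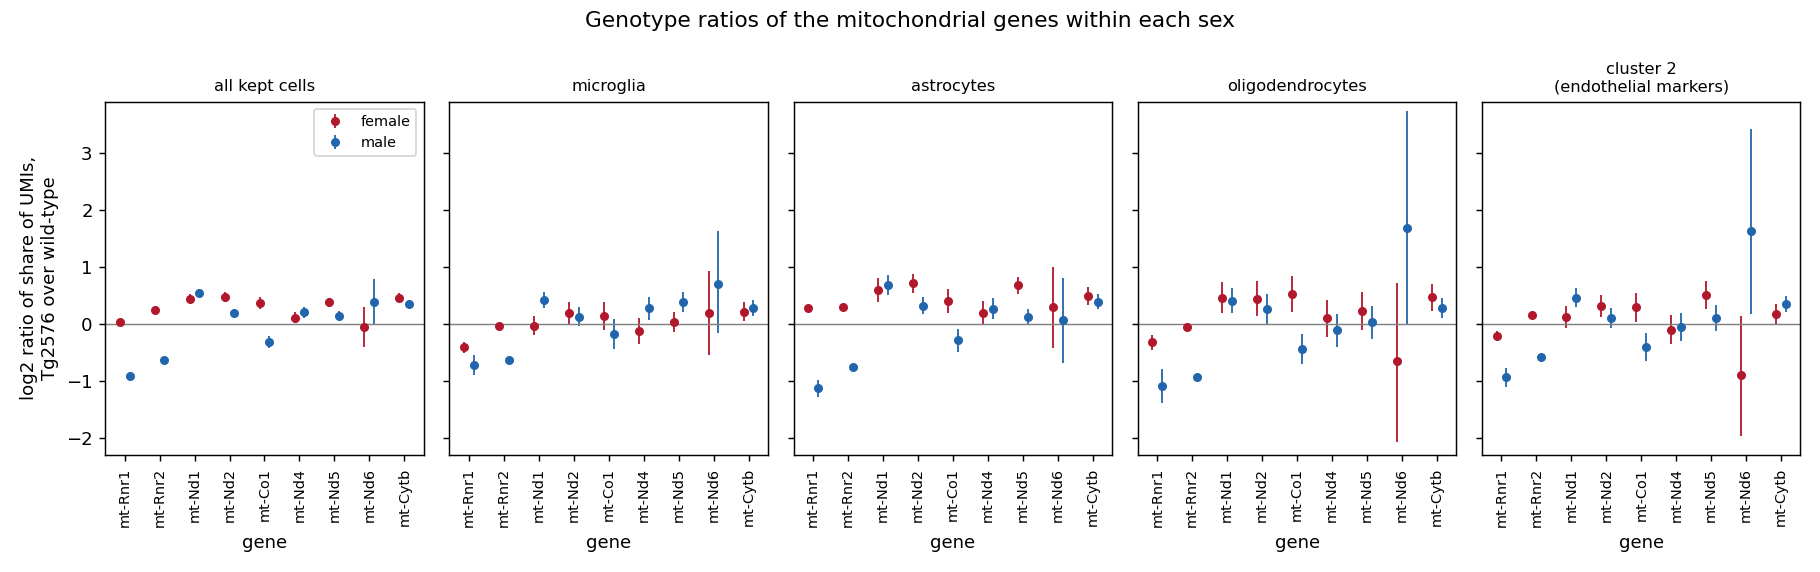
Points give the log2 ratio of Tg2576 over wild-type of each gene's share of all UMIs, in females (red) and males (blue), for all kept cells and 4 populations, and bars give 95% intervals for counting error. Both rRNAs lie below 0 in males in all 5 panels, mt-Nd1 and mt-Cytb lie above 0 in males in all 5, and mt-Co1 has opposite signs in the sexes in each panel (0.37 and -0.32 over all kept cells).

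Tg2576 was compared with wild-type over both sexes on summed UMIs of each library, using the quasi-likelihood test of edgeR with terms for genotype and sex, 1 residual degree of freedom and Benjamini-Hochberg adjustment over all genes tested. Over all kept cells, 22 of the 27 members passed the filter on low counts and none passed the test (0 of 22, with 2 at an unadjusted p under 0.05 and 0 called by DESeq2), beside 0.438% of the 13002 genes tested. In oligodendrocytes 0 of 9 members were called (3 at an unadjusted p under 0.05, 0 by DESeq2) and in cluster 2 0 of 14 (2 unadjusted, 0 by DESeq2), beside 0.131% and 0.198% of all genes. In microglia 1 of 12 members was called, beside 0.617% of all genes: mt-Rnr1 was lower in Tg2576 by a log2 change of -0.60 (SE 0.157, adjusted p = 0.0293). In astrocytes 1 of 11 was called, beside 0.107% of all genes: mt-Nd1 rose by 0.61 (SE 0.138, adjusted p = 0.00952), at 772 and 1167 CPM in wild-type and Tg2576 females and 1380 and 2219 CPM in the males. mt-Rnr1 in microglia was at 3258 and 2457 CPM in the female wild-type and Tg2576 libraries and at 1165 and 708 CPM in the male ones. DESeq2 called neither gene (adjusted p = 1.00 for each), and neither was called without the sex term. With 1 library left out the sex term had to be dropped as well, so these fits mix sex into genotype and do not show the effect of the library alone. Neither gene was called in them, and the change of mt-Rnr1 in microglia was 0.42 without the female wild-type library and 0.10 without the male Tg2576 library, while that of mt-Nd1 in astrocytes ranged from 0.24 to 0.98.

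The contrast of the 2 male with the 2 female libraries gave more calls in the same fit, whose p-values do not rest on replicate libraries of a group. mt-Rnr1 was lower in the male libraries in all 5 sets, with log2 changes of -2.26 over all kept cells (SE 0.248, edgeR adjusted p = 6.48e-06), -1.66 in microglia (adjusted p = 5.06e-22), -2.68 in astrocytes (adjusted p = 5.70e-65), -2.25 in oligodendrocytes (adjusted p = 1.34e-10) and -1.71 in cluster 2 (adjusted p = 1.80e-08). It was at 7015 and 7163 CPM in the female wild-type and Tg2576 libraries over all kept cells and at 2229 and 1180 CPM in the male ones. mt-Rnr2, at 103736, 122863, 64881 and 42036 CPM, was lower by -0.95 in microglia (adjusted p = 0.00387), -1.37 in astrocytes (adjusted p = 1.70e-15), -1.24 in oligodendrocytes (adjusted p = 0.00135) and -1.01 in cluster 2 (adjusted p = 5.12e-06), and was not called over all kept cells.

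The mRNAs that passed this test were all higher in the male libraries. In microglia, mt-Nd1 (log2 0.69, adjusted p = 0.000594), mt-Nd4 (0.61, adjusted p = 0.00396), mt-Cytb (0.54, adjusted p = 0.0117) and mt-Nd2 (0.50, adjusted p = 0.0219) were called by edgeR. In astrocytes, mt-Cytb (0.76, adjusted p = 8.54e-06), mt-Nd1 (0.67, adjusted p = 0.000223) and mt-Nd4 (0.43, adjusted p = 0.0463) were called. With both rRNAs, this made 6 of 12 members in microglia, beside 5.77% of all genes, and 5 of 11 in astrocytes, beside 4.24%. Only rRNAs were called in oligodendrocytes (2 of 9, beside 1.34%) and cluster 2 (2 of 14, beside 0.881%), and mt-Rnr1 alone over all kept cells (1 of 22, beside 5.03%). DESeq2 called fewer members: 2 in microglia, 0 in astrocytes, and 1 each in oligodendrocytes, cluster 2 and all kept cells. When 1 library and the genotype term were left out, 1 (without male Tg2576) to 3 (without male wild-type) members were called in microglia and 2 (without female wild-type or male Tg2576) to 4 in astrocytes.

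The nuclear genes of the respiratory chain, which supply the remaining subunits of complexes I to IV and of the ATP synthase, were then examined in the same fits. None of the 73 to 77 tested of 78 was called for genotype in any of the 5 sets (0 at an unadjusted p under 0.05 over all kept cells, 6 in microglia, 3 in astrocytes, 7 in oligodendrocytes and 6 in cluster 2, and 0 called by DESeq2 in each). Their median log2 change for genotype was -0.010 over all kept cells, 0.082 in microglia, 0.051 in astrocytes, 0.269 in oligodendrocytes and 0.195 in cluster 2, where the median over all genes tested was within 0.01 of 0. Against the UMIs of all nuclear genes and within each sex, the ATP synthase genes Atp5f1 (female 0.67, male 0.79) and Atp5c1 (0.56 and 0.51) had the largest ratios of the same sign in cluster 2, Ndufa13 (0.46 and 0.45) and Ndufa2 (0.45 and 0.38) in microglia, Uqcrc1 (0.37 and 0.59) and Ndufs6 (0.22 and 0.33) in astrocytes, and Cox4i1 (0.23 and 0.29) and Cox6a1 (0.16 and 0.08) in oligodendrocytes. Over all kept cells these were Ndufb8 (0.28 and 0.30) and Uqcrc1 (0.32 and 0.24). In the other direction they were Ndufv1 (-0.29 and -0.30) and Ndufc1 (-0.14 and -0.24) over all kept cells, Cox7c (-0.12 and -0.24) and Cox6a1 (-0.11 and -0.13) in astrocytes and Atpif1 (-0.04 and -0.07) in microglia. In cluster 2 the 4 intervals of Atp5f1 and Atp5c1 lay above 0, while each of the other genes named here had an interval that spanned 0 in at least 1 sex. The genes with at least 100 UMIs per sex numbered 76 over all kept cells (27 higher and 13 lower in both sexes) and 28 in microglia (16 and 1). There were 51 in astrocytes (15 and 6), only 3 in oligodendrocytes (2 and 0) and 31 in cluster 2 (23 and 0). The like counts over all other genes were not made, so these counts have no background beside them and are descriptions only.

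Between the sexes, 20 of 77 nuclear respiratory chain genes were higher in the male libraries over all kept cells, beside 5.03% of all genes, and 0 were lower, with a median log2 change of 0.38. This count was 1 without the genotype term and 0 or 1 with 1 library left out as well. Complex IV had the largest share of called genes, with 6 of 11, among them Cox8a (log2 0.66, edgeR adjusted p = 0.0163) and Cox4i1 (0.54, adjusted p = 0.0382), whereas complex I had 6 of 37, such as Ndufs3 (0.78, adjusted p = 0.0157). Sdhb of complex II (0.67, adjusted p = 0.0152) and Atp5g1 of the ATP synthase (0.86, adjusted p = 0.00494) were also called. In astrocytes 11 of 76 were higher, beside 4.24% of all genes, for example Cox8a (0.66, adjusted p = 0.00144) and Ndufb8 (0.81, adjusted p = 0.01001), and the count was 0 without the genotype term and 0 to 3 with 1 library left out as well (3 without male wild-type). In microglia the 3 of 76 called, Ndufs8, Cox4i1 and Ndufa4, were a smaller share than the 5.77% of all genes. In oligodendrocytes 0 of 73 and in cluster 2 0 of 76 were called (10 and 11 with an unadjusted p under 0.05). DESeq2 called 0 in each of the 5 sets. Of 26 genes of mitochondrial transcription, RNA processing and genome maintenance, 24 could be tested over all kept cells, 15 in microglia, 7 in astrocytes, 3 in oligodendrocytes and 8 in cluster 2, and edgeR called none of those tested for genotype or sex.

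Malat1, Neat1 and the immediate early genes also differed between the sexes in some of the sets. Malat1 was lower in the male libraries in microglia (log2 -0.68, edgeR adjusted p = 0.0438), astrocytes (-0.52, adjusted p = 0.0161), oligodendrocytes (-0.89, adjusted p = 0.0181) and cluster 2 (-0.66, adjusted p = 0.000963), and over all kept cells it was at -0.70 (adjusted p = 0.266). Neat1, also retained in the nucleus, was higher in the male libraries in astrocytes (0.55, adjusted p = 0.0430). Immediate early genes, which cells switch on within minutes of stress, were higher in the male libraries for 7 of 10 in microglia, such as Ier2 (1.05, adjusted p = 4.13e-09), for 4 of 10 in cluster 2, for 2 of 10 in astrocytes and for 2 of 10 over all kept cells, beside 5.77%, 0.881%, 4.24% and 5.03% of all genes. In oligodendrocytes 0 of 8 were called and 3 of 8 had a positive change, with a median of -0.21. Over all genes, DESeq2 called far fewer for sex: 15 of 7620 in microglia, 2 of 5592 in astrocytes, 11 of 5559 in cluster 2 and 45 of 13002 over all kept cells. For genotype, 4 of 10 fell in cluster 2, beside 0.198% of all genes. These were Fosb (log2 -1.496), Atf3 (-1.18), Fos (-1.11) and Jun (-0.66), with edgeR adjusted p between 0.000111 and 0.0370. None of the 4 was called without the sex term, where 0 of 5559 genes were called for genotype in cluster 2, and DESeq2 called only 2 genes in all. In astrocytes 0 of 10 were called for genotype and 8 of 10 had a positive change, with a median of 0.31. The part of these differences in the mitochondrial ones was not tested.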

How the data were processed

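Cortex of 9 pooled mice per group was profiled by 3′ Drop-seq in 4 libraries. The deposited tables held raw UMI counts per gene and barcode, 3000 barcodes each, made by the authors from the reads. The submitters' processing notes name mm10 and Seurat 3.1.4, and the aligner and annotation are not given in the sources used here. No sample column was left unused.

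Barcodes with 200 to 7000 genes were kept. The study's methods set a limit of 5% mitochondrial UMIs, which would act on the value compared here, so no limit was set and limits of 5% and 20% were run as alternatives. Cells were normalised with SCTransform (Seurat 5.3.0, sctransform 0.4.2, R 4.3.3) without the mt- genes, clustered (19 principal components, resolution 0.5) and named from marker lists. Cluster 2 was kept under its number because haemoglobin genes led it, and clusters 7 (macrophage, neutrophil and ependymal genes), 13 (3 astrocyte markers, 5, 62, 0 and 35 cells, or 0.391%, 3.77%, 0% and 2.22% of the cells in the order female wild-type, female Tg2576, male wild-type and male Tg2576) and 14 (led by interferon response genes) were left out of the named types. The threshold that did so for cluster 13 was set after its values were seen. Cluster 14 also had all 9 endothelial markers raised, so cluster 2 does not hold all cells with these markers. It had 0, 43, 20 and 1 cells in the female wild-type, female Tg2576, male wild-type and male Tg2576 libraries. Doublets were not removed in the main set, and Scrublet (scanpy 1.11.5) marked 103 cells (1.84%).

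For each library, the UMIs of a cell type were added up. Ratios of Tg2576 over wild-type within a sex have exact conditional binomial 95% intervals, which cover counting error only. Effects over libraries were fitted with edgeR 4.0.16 (quasi-likelihood test, TMM, filterByExpr, sex and genotype as terms, Benjamini-Hochberg adjustment over all genes tested, threshold 0.05). DESeq2 1.42.0 was run as an alternative. With 1 library per group, the 1 residual degree of freedom holds how far the genotype difference departs between the sexes. The p-values therefore do not measure a spread between replicate libraries or mice. Cell types were compared by exact two-sided sign-flip permutation over 4 libraries. The edgeR fit for genotype was tried on simulated counts, which were drawn without a sex effect and so lack the differences between the sexes seen here. Python 3.11.15 with numpy 2.4.6, scipy 1.17.1, pandas 2.3.3 and matplotlib 3.10.9 was used, and gene positions are from RefSeq's table for the same build.

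The members and lists were chosen with earlier results of these data known. Named are all rRNAs and mRNAs, tRNAs with at least 100 UMIs in kept cells, list genes with an adjusted p under 0.05, and per population the 2 nuclear respiratory chain genes with the largest ratio of 1 sign in both sexes in each direction, among those with at least 100 UMIs per sex. Not every called list gene is printed.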

Additional observations from a re-analysis of the deposited data

Results flagged for a closer look

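Several ratios of Tg2576 over wild-type had opposite signs in females and males, with intervals for counting error that excluded 0 in both sexes. Each sex rests on 1 pair of libraries, so the difference between the sexes was not tested. The log2 ratio of the mitochondrial share was 0.24 in females and -0.50 in males over all kept cells, 0.30 and -0.62 in astrocytes, and 0.14 and -0.49 in cluster 2, with endothelial markers. mt-Rnr2 had ratios of 0.24 and -0.63 over all kept cells, 0.29 and -0.75 in astrocytes, and 0.15 and -0.59 in cluster 2, and mt-Rnr1 had 0.27 and -1.13 in astrocytes. For mt-Co1, the only mRNA with this pattern, the ratios were 0.37 and -0.32 over all kept cells, 0.40 and -0.29 in astrocytes, 0.53 and -0.43 in oligodendrocytes, and 0.29 and -0.41 in cluster 2.

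Barcodes with under 200 genes, which entered none of the comparisons between cell types, sexes or genotypes within kept cells, had a mitochondrial share of 42.6% in the female Tg2576 library, above the 41.3% of the female wild-type library.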

How the results depend on the processing

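With 1 library per group, no interval covers the spread between libraries. No paired analysis was possible because the groups share only 1 replicate number, so a replicate block could not be fitted beside the sex term of the main fit. Leaving out a library meant dropping the other term too, so those values reflect both choices.

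The cells kept moved the ratios most. The cause was not tested for any change given here. With cells limited to 20% mitochondrial UMIs, the log2 ratio of the mitochondrial share was 0.10 over all kept cells and 0.041 in astrocytes in females, and -0.46 over all, -0.45 in astrocytes and -0.65 in oligodendrocytes in males. At a limit of 5% it was 0.012 over all, 0.22 in astrocytes and 0.14 in oligodendrocytes in females, reversed to 0.0217 in microglia and -0.41 in cluster 2, and in males it was -0.13, -0.15 (microglia), -0.12 (astrocytes), -0.12 (oligodendrocytes) and -0.13 (cluster 2). This limit left out 95.7% and 98.5% of the astrocytes of wild-type and Tg2576 females. It also left out 87.8% and 94.3% of their oligodendrocytes and 98.3% and 98.7% of their cluster 2 cells. Those female ratios therefore rest on few cells. With at least 500 genes the log2 ratio of the mitochondrial share was 0.19 over all, 0.22 in astrocytes and 0.069 in cluster 2 in females, and -0.53 over all and -0.46 in microglia in males. As a median over cells it was 0.19 over all and 0.34 in astrocytes and reversed to 0.033 in microglia in females, and -0.64 over all, -0.47 in microglia, -0.69 in astrocytes, -0.82 in oligodendrocytes and -0.58 in cluster 2 in males. Without doublets it was -0.065 in female microglia and -0.66 in male oligodendrocytes. Against all other genes but Malat1 it was 0.27 over all and 0.36 in astrocytes in females, and -0.54, -0.53 (microglia), -0.70 (astrocytes), -0.77 (oligodendrocytes) and -0.53 (cluster 2) in males.

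Alternatives chosen after seeing the data gave, for the mitochondrial share, 0.060 (reversed) in females and -0.20 in males with cluster 3 alone as microglia, -0.53 in males with cluster 0 alone, and 0.24 in females with cluster 1 alone as astrocytes. The mRNA ratio over all kept cells was 0.31 in females and 0.29 in males at 20%, -0.10 (reversed) and 0.44 at 5%, and 0.42 and 0.21 against the UMIs of all other genes. At 5% the female mRNA ratio was 1.27 in cluster 2 and 0.13 in oligodendrocytes and reversed to -0.39 in astrocytes, and the female rRNA ratio was 0.0217 in microglia, 0.14 in oligodendrocytes and -0.66 in cluster 2, these 3 reversed. Few female cells of cluster 2, astrocytes and oligodendrocytes were within that limit, as given above.

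Members called for genotype numbered 2 in microglia, 3 in astrocytes and 1 in cluster 2 without the count filter, 2 in astrocytes and 1 in cluster 2 at 20%, and 0 in microglia and astrocytes with DESeq2 or without the covariate. With 1 library left out they numbered 0 to 1 over all kept cells (1, mt-Rnr1, without female Tg2576), 0 to 0 in microglia and 0 to 1 in astrocytes, and mt-Rnr1 in microglia reversed to 0.42 without female wild-type and 0.10 without male Tg2576 (range -1.72 to 0.42 with 1 library left out).

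For sex, the counts over all kept cells were 2 without the filter, 3 at 20% and 1 to 2 with 1 library left out. In microglia they were 2 with DESeq2, 2 without the covariate and 1 to 3 with 1 library left out. In astrocytes they were 0, 2 and 2 to 4, and 8 at 20%. In oligodendrocytes they were 1 with DESeq2 and 1 to 3 (3 without male wild-type) with 1 library left out, and in cluster 2 they were 1 with DESeq2, 1 without the covariate, 4 at 20% and 1 to 2 with 1 library left out. mt-Rnr1 stayed called for sex in 9 of 9 alternatives over all kept cells, in microglia, oligodendrocytes and cluster 2, and in 8 of 9 in astrocytes. The order of cell types held for 13 pairs at 20%, 14 for medians and 13 at resolution 1.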
